A study of Mus musculus with 4 samples.

Results

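Protein kinase A (PKA) subunits, PKA inhibitors and A-kinase anchoring proteins were followed in satellite cells, the stem cells that repair muscle, sorted straight from mouse muscle. The genes were chosen by symbol: every probe set annotated to Prkaca, Prkacb, Prkar1a, Prkar2a, Prkar2b, Pkia, Pkig, Akap1 or Akap12 alone was taken, which gave 22 probe sets for 9 genes among 45101 probe sets and 18193 named genes on the array. Calcr-cKO cells came from mice with Calcr flox/flox, a Pax7-CreERT2 allele and a Rosa-YFP reporter, in which tamoxifen-activated Cre deletes the calcitonin receptor gene. Control cells came from Calcr+/+ mice with the same Pax7-CreERT2 and Rosa-YFP alleles. Mice of both genotypes were 10 weeks old and received tamoxifen, and YFP-positive cells were collected by flow sorting 2 weeks later. Each genotype had 2 biological replicates on 1 array each. The Cre is driven from the Pax7 locus, so deletion and the YFP label depend on Pax7 expression, and the number of mice behind each sample is not known here.

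PKA is the main cAMP-dependent protein kinase. Without cAMP, a dimer of regulatory subunits holds and silences the catalytic subunits; cAMP made after activation of a Gs-coupled receptor binds the regulatory subunits and frees catalytic activity. Free catalytic subunits can be captured by small heat-stable PKI inhibitors, and anchoring proteins tether the holoenzyme at particular membranes through the regulatory dimer. The calcitonin receptor couples to Gs and cAMP, and the comparison of genotypes asks whether transcripts of this kinase system differ once the receptor gene is deleted.

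Values are MAS5 signals, a linear brightness per probe set. Signals of different probe sets are not on a common scale, so each is compared with itself across arrays only. Sums over marker lists are also compared across arrays only, and the brightest genes weigh most in them. Median signals of the arrays were 68.8 and 57.8 for Calcr-cKO replicates 1 and 2, and 70.4 and 64.3 for control replicates 1 and 2, and the 3'/5' ratio of the Gapdh control probe sets was 1.56 and 1.71, against 1.54 and 1.59. The targeted gene checked the labels: Calcr read 568 and 684 in Calcr-cKO cells, against 1268 and 1424 in control cells (log2 difference -1.11, SE 0.25, 2.15-fold lower, limma adjusted p = 1 after rounding). Whether its probes fall inside the deleted exons is not known here. Pax7 and Myf5, which define satellite cells, read 2170 and 2434 and 1878 and 2843 in Calcr-cKO cells, against 2319 and 3647 and 2028 and 3002 in control cells. The arrays numbered 1 stood apart in both genotypes. Endothelial markers summed to 10059 and 1608 on Calcr-cKO replicates 1 and 2, against 11044 and 1395 on control replicates 1 and 2, and pericyte and smooth muscle markers to 16102 and 6266, against 14314 and 7368. Leukocyte markers summed to 1510 and 626, against 1422 and 2691.

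None of the 9 genes passed the test between genotypes. Of the 22 probe sets, 19 passed the brightness filter (a mean signal of 63.9 over the 4 arrays), with at least 1 for each gene, and 0 of these 19 had an adjusted p under 0.05 with limma. Over all 22519 probe sets tested the share was 0%. At an unadjusted limma p under 0.05 there were also 0 of 19, beside 0.724% of all probe sets tested, and the smallest unadjusted p among the 19 was 0.0745. The median log2 difference over the 9 genes, each by its brightest probe set, was -0.03, against -0.04 over all 10140 genes tested. Without a filter, 7 of the 22 probe sets (31.8%) had both Calcr-cKO arrays below both control arrays and 0 had both above. Of all probe sets, 16.5% lay below, 9.27% above and 25.7% in either direction. Above the filter the counts were 6 of 19 below and 0 above, beside 13.5% and 7.87% of all probe sets tested, or 21.4% in either direction, and 13 of the 19 were lower in mean, beside 58.9%. The 7 were 6 probe sets of regulatory subunits and 1 of Akap1. The 95% intervals reached at least 0.31 on the log2 scale to either side of each difference, and 1.39 at the widest, so missing the threshold does not show equal levels. With 2 arrays a group, an exact 2-sided permutation test of a single value cannot give a p under 0.333. Since these are bulk samples, fewer cells of a type and less RNA per cell cannot be told apart.

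**Figure D1:**
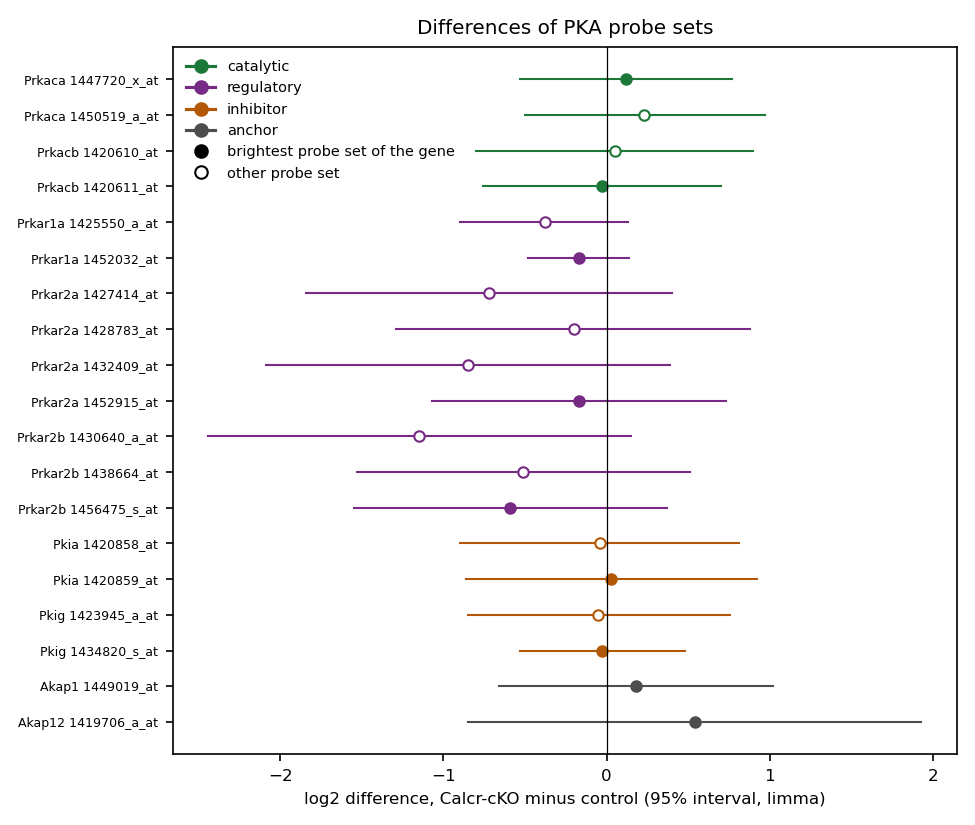
Log2 differences (Calcr-cKO minus control, horizontal axis) of the 19 PKA probe sets above the filter, with 95% intervals from limma; filled points mark the brightest probe set of each gene and colours the role. All 9 regulatory subunit probe sets lie below 0, from -1.15 to -0.17, the 4 catalytic ones lie between -0.03 and 0.23, and every interval includes 0.

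The regulatory subunits were the group in which the genotypes were most often separated, without any call. All 10 of their probe sets had a lower mean log2 value in Calcr-cKO cells, beside 58.6% of all probe sets without a filter. For 6 of the 10, with at least 1 for each of the 3 genes, both Calcr-cKO arrays lay below both control arrays, beside 16.5% of all probe sets. Calcr-cKO replicate 2, the array with the lowest median signal (57.8), was the lowest of the 4 arrays on all 10. Over the 9 above the filter, the median log2 difference was -0.1 between the arrays numbered 1 and -0.97 between those numbered 2. With all arrays it was -0.51, and without Calcr-cKO replicate 2 it was -0.24. The part of that array in these differences was not tested. Probe sets of 1 gene read the same transcripts and are not independent. Of the 9 that passed the filter, 2 did so only through the control arrays, 1432409_at of Prkar2a and 1430640_a_at of Prkar2b. These counts therefore describe the values and are not a test.

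Prkar1a encodes RIα, the widely expressed type I regulatory subunit; in humans its loss releases PKA activity and causes Carney complex. Its brightest probe set, 1452032_at, read 3862 and 3709 in Calcr-cKO cells, against 4342 and 4179 in control cells. Both control arrays were above both Calcr-cKO arrays, by a small margin that exceeded the spread within each genotype (3786 ± 109 against 4260 ± 115, SD, n = 2 each). The log2 difference was -0.17 (95% interval -0.48 to 0.14, limma adjusted p = 1). The probe set 1425550_a_at read 1584 and 1296 in Calcr-cKO cells, against 1701 and 2048 in control cells. It too separated the genotypes, with a log2 difference of -0.38 (SE 0.22, limma adjusted p = 1), and Calcr-cKO replicate 2 and control replicate 2 were its extremes. The third probe set, 1447635_at, was dim, at 18.1 and 12.9 against 19.4 and 16.1, and overlapped. When arrays were centred on their median, the difference of 1452032_at was -0.08 and the genotypes overlapped on it. Its separation thus depended on the scaling of the arrays.

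Prkar2a encodes RIIα, a type II regulatory subunit, the class that binds most anchoring proteins with high affinity. Its 4 probe sets did not give a uniform picture. The brightest, 1452915_at, read 430 and 244 in Calcr-cKO cells, against 415 and 320 in control cells, and the genotypes overlapped (log2 difference -0.17, SE 0.38). Without Calcr-cKO replicate 2 that difference turned to 0.24, and without control replicate 1 to 0.02. The probe set 1428783_at also overlapped, at 218 and 98.8 against 146 and 195. Calcr-cKO replicate 2 was the lowest array on all 4 probe sets of the gene. The probe set 1427414_at read 103 and 46.9 in Calcr-cKO cells, against 111 and 120 in control cells, so it separated the genotypes mainly through that array (log2 difference -0.72, SE 0.48, limma adjusted p = 1). The last probe set, 1432409_at, read 69.4 and 42.2, against 147 and 65.9, with control replicate 1 high and the other 3 arrays near the filter level.

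Prkar2b encodes RIIβ, the type II regulatory subunit best known from fat and brain. Its signals were close to the filter level, and all 3 of its probe sets separated the genotypes. The probe set 1456475_s_at, its brightest, read 106 and 78.4 in Calcr-cKO cells, against 112 and 169 in control cells (92.1 ± 19.4 against 141 ± 40.6, SD, n = 2 each). The log2 difference was -0.59 (95% interval -1.55 to 0.37, limma adjusted p = 1). The probe set 1430640_a_at read 68.8 and 30.1 in Calcr-cKO cells, against 75.3 and 139 in control cells, a 2.22-fold lower level (log2 difference -1.15, SE 0.55, limma adjusted p = 1). It was the only probe set of the 9 genes that was at least 2-fold apart without overlap, as were 0.546% of all probe sets tested, 0.426% with the lower level in Calcr-cKO cells. Its Calcr-cKO mean of 49.5 lay below the filter level of 63.9, so it passed the filter only through the control arrays. The probe set 1438664_at read 69.1 and 60.3, against 71.8 and 119, and overlapped when arrays were centred on their median. On the deposited signals, both Calcr-cKO arrays lay below both control arrays for each of the 3 probe sets. Calcr-cKO replicate 1 and control replicate 1 lay close together, and the gap came from Calcr-cKO replicate 2 and control replicate 2. Leaving out control replicate 2 left -0.29 for the brightest probe set and leaving out Calcr-cKO replicate 2 left -0.38. Those same arrays were the lowest and the highest for the summed leukocyte markers (626 and 2691). Of the leukocyte markers above the filter, 7 of 8 were lower in mean in Calcr-cKO cells, beside 57.3% of all genes. Among them, H2-Eb1 and Laptm5 passed the filter only through the control arrays, with Calcr-cKO means of 51.3 and 55.1. That count describes the values and is not a test. None of these 8 was at 0, which without detection calls does not show that leukocytes were present. The pan-leukocyte marker Ptprc was under the filter on both of its probe sets. Calcr-cKO replicate 2 also had the lowest median signal (57.8) and the highest Gapdh 3'/5' ratio (1.71). The satellite cell markers also summed highest on control replicate 2, at 22478 and 23798 in Calcr-cKO cells, against 22495 and 30787 in control cells. Of these markers, 9 of 10 were lower in mean in Calcr-cKO cells, beside 57.3% of all genes. The part of these marker and array differences in the Prkar2b values was not tested.

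**Figure D2:**
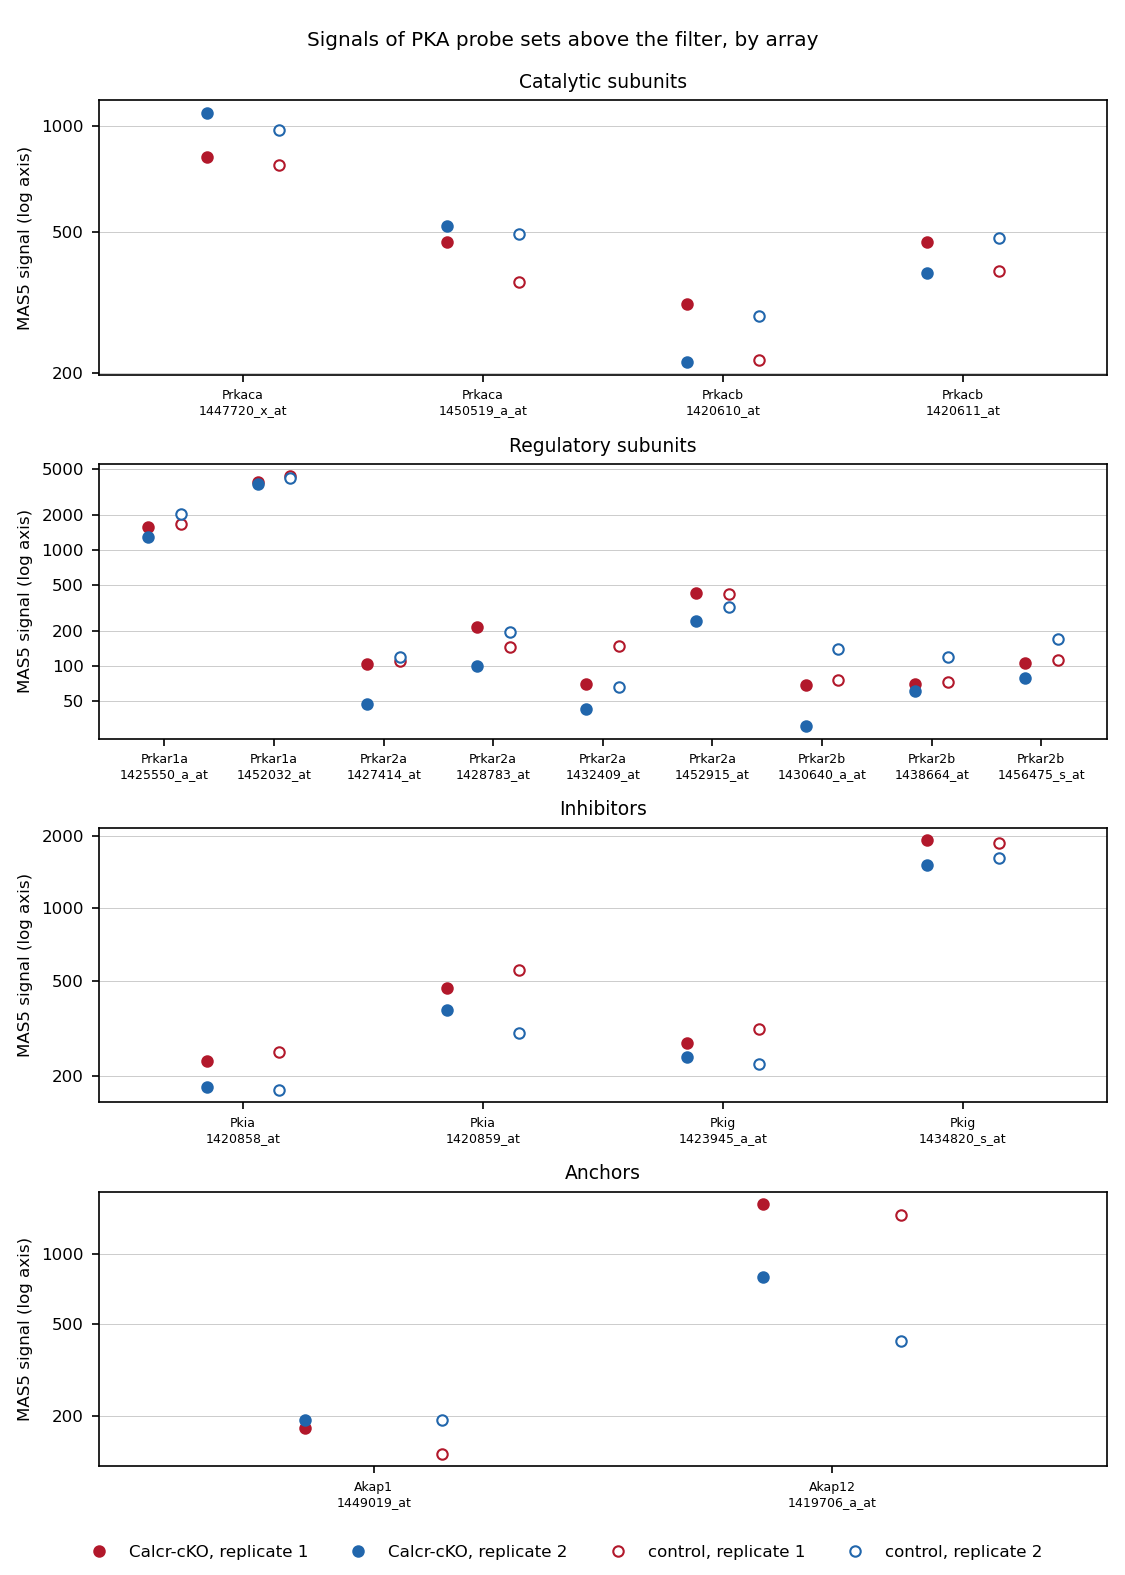
MAS5 signal (vertical log axis) of each PKA probe set above the filter on each array, by role, with Calcr-cKO filled on the left and control open on the right of each position, replicate 1 in red and replicate 2 in blue. All 3 Prkar2b and both Prkar1a probe sets separate the genotypes, while catalytic subunits and inhibitors overlap, and Akap12 is higher on both arrays numbered 1.

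Promoter windows of the regulatory subunit genes are printed because all 10 probe sets of these genes were lower in mean and because cAMP acts on transcription through CREB, which binds the palindrome TGACGTCA and, more weakly, its core TGACG. The windows are from RefSeq on GRCm38.p6 and run from 250 bases before to 50 bases after an annotated start. Where a gene had several windows, one with the palindrome was taken, the one with the palindrome farthest upstream if several had it, and otherwise the window farthest upstream. The printed window is 1 of 6 for Prkar1a, the only 1 for Prkar2a and 1 of 2 for Prkar2b. For Prkar1a it is chr11:109650699-109650998 on the + strand, for Prkar2a chr9:108691893-108692192 on the + strand and for Prkar2b chr12:32061228-32061527 on the - strand. Capitals mark the palindrome in Prkar1a and the core, here on the other strand, in Prkar2a.
Prkar1a: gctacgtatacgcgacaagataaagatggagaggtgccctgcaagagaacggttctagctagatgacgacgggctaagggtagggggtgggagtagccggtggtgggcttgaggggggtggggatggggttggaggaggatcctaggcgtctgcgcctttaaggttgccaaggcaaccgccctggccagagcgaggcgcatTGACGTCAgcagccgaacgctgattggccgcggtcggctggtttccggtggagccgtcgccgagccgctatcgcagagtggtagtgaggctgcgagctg
Prkar2a: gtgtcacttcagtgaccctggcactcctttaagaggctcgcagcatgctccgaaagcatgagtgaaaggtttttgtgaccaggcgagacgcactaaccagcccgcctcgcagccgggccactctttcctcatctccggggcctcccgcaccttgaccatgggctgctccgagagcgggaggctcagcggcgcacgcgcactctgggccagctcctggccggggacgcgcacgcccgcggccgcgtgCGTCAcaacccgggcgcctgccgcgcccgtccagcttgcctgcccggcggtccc
Prkar2b: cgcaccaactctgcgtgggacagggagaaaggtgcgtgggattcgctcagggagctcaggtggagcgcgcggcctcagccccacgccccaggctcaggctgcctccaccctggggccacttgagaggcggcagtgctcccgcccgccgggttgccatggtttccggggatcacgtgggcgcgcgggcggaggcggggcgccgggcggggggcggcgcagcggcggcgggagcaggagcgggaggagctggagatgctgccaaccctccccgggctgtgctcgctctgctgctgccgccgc
The printed Prkar1a window holds the palindrome once, starting 49 bases before the transcript start, and 1 further core outside it; 4 of the 6 Prkar1a windows lack the palindrome and 3 lack a core. The Prkar2a window holds 1 core starting 4 bases before the start, and both Prkar2b windows hold neither. Both strands were searched, and every palindrome contains the core on each strand. Of 32851 windows of this length in the table, 1.79% held the palindrome and 20.8% a core. Windows were found for 7 of the 9 genes, 20 in all; 2 held the palindrome, both of Prkar1a and overlapping each other, and 7 held a core. These 7 included 1 window each of the catalytic genes Prkaca and Prkacb. A match is a string of letters, not a measured binding site.

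The catalytic subunits were not separated between genotypes. Prkaca encodes Cα, the widely expressed catalytic subunit. It read 816 and 1089 in Calcr-cKO cells, against 773 and 973 in control cells on 1447720_x_at, whose suffix marks probes that may also bind other transcripts (log2 difference 0.12, SE 0.28). Its other probe set, 1450519_a_at, read 470 and 522, against 361 and 493. On both, replicate 2 was the brighter array in each genotype, and the genotypes overlapped. The largest difference of a catalytic probe set was that of 1450519_a_at, 0.23 on the log2 scale (95% interval -0.50 to 0.97).

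Prkacb encodes Cβ, a catalytic subunit with several splice forms. It read 469 and 383 in Calcr-cKO cells, against 389 and 482 in control cells on 1420611_at (log2 difference -0.03, SE 0.31). On 1420610_at it read 314 and 214, against 217 and 289. Both probe sets shared 1 order: replicate 1 was the brighter in Calcr-cKO cells and replicate 2 in control cells, so that each genotype spanned nearly the same range. The third probe set, 1457197_at, was below the filter at 44.9 and 37.2, against 65.3 and 29.3.

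The PKI inhibitor transcripts likewise overlapped between genotypes on all 4 probe sets. Pkia encodes PKIα, a pseudosubstrate that binds free catalytic subunits and carries them out of the nucleus, and it is abundant in skeletal muscle. It read 467 and 376 in Calcr-cKO cells, against 555 and 304 in control cells on 1420859_at (421 ± 64.3 against 430 ± 177, SD, n = 2 each), a log2 difference of 0.03 (95% interval -0.86 to 0.92). On 1420858_at it read 232 and 180, against 252 and 176. Within both genotypes replicate 1 was brighter than replicate 2 on both probe sets. Pkig encodes PKIγ, the broadly expressed inhibitor. It read 1915 and 1516 in Calcr-cKO cells, against 1860 and 1620 in control cells on 1434820_s_at (log2 difference -0.03, 95% interval -0.53 to 0.48). On 1423945_a_at it read 276 and 241, against 316 and 225. The 4 inhibitor probe sets differed by -0.05 to 0.03 on the log2 scale, less than the spread within either genotype.

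Of the anchors, Akap12 varied most between arrays, more by replicate number than by genotype. Akap12 encodes gravin (SSeCKS), a scaffold at the plasma membrane that holds PKA, protein kinase C and the β2-adrenergic receptor. Its only probe set read 1642 and 795 in Calcr-cKO cells, against 1470 and 421 in control cells. Between arrays of the same number Calcr-cKO was the higher, by 0.16 on the log2 scale for number 1 and 0.92 for number 2. Both arrays numbered 1 were above both arrays numbered 2, and the genotypes overlapped (log2 difference 0.54, 95% interval -0.85 to 1.93, limma adjusted p = 1). The difference turned to -0.36 without control replicate 2 and was 1.44 without control replicate 1 (limma adjusted p = 1). Markers of vascular cells split the arrays the same way. In both genotypes 14 of 15 endothelial markers above the filter were at least 2-fold higher on the array numbered 1, as were 6 of 9 pericyte and smooth muscle markers. Some of these passed the filter only through the arrays numbered 1. Kdr, for example, read 505 and 28 in Calcr-cKO cells, against 526 and 35.1 in control cells. The same share was not counted over all genes, so these counts describe the markers and are not a test. Cdh5, the endothelial cadherin, read 1060 and 110 in Calcr-cKO cells, against 1044 and 79.7 in control cells, and the pericyte marker Rgs5 read 4828 and 649, against 5200 and 442. Pecam1 read 798 and 62.8, against 778 and 77.5. None of these markers was at 0 on any array, which without detection calls does not show that vascular cells were present. The part of such cells in the Akap12 signal was not tested.

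**Figure D3:**
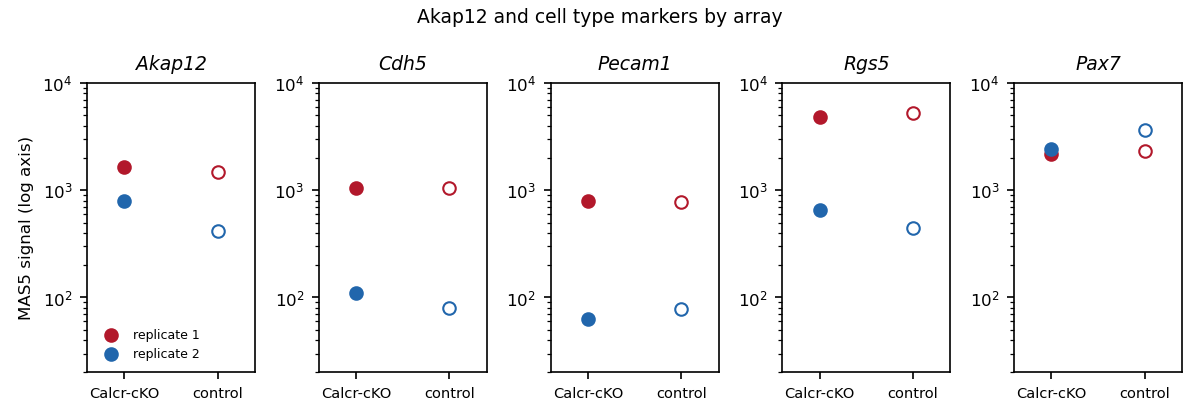
MAS5 signal (vertical log axis) of Akap12, the endothelial markers Cdh5 and Pecam1, the pericyte marker Rgs5 and the satellite cell marker Pax7 on each array, Calcr-cKO left and control right, replicate 1 in red and replicate 2 in blue. Akap12 and the 3 vascular markers are higher on both arrays numbered 1 and Pax7 is not.

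Akap1 encodes an anchor of the outer mitochondrial membrane that binds both type I and type II regulatory subunits. It read 177 and 192 in Calcr-cKO cells, against 138 and 193 in control cells on 1449019_at, with only control replicate 1 apart from the others (log2 difference 0.18, SE 0.36). Its other probe set, 1418279_a_at, was below the filter at 40.9 and 23.7, against 44.8 and 58. There both Calcr-cKO arrays were below both control arrays, so the probe sets of Akap1 disagreed in sign.

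Other subunits and inhibitors of the family gave no call either. Prkx, a related cAMP-dependent kinase catalytic protein, read 1991 and 1441 in Calcr-cKO cells, against 2085 and 1580 in control cells, and its 3 probe sets all overlapped. Prkar1b, the regulatory subunit RIβ best known from neurons, read 90.7 and 81.1, against 85.1 and 134, on the only 1 of its 5 probe sets above the filter (log2 difference -0.31, limma adjusted p = 1). Both probe sets of Pkib, the inhibitor best known from testis, were below the filter, between 1.62 and 7.24 in Calcr-cKO cells and between 2.95 and 15.9 in control cells.

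A list of 29 other anchoring proteins had 20 members above the filter, of which 10 were higher and 10 lower in Calcr-cKO cells, with a median log2 difference of 0.00 beside -0.04 over all genes. None passed the limma test at an adjusted p under 0.05, and 0 of 20 had an unadjusted p under 0.05, beside 0.720% of all genes. For 5 of the 20 both Calcr-cKO arrays were above both control arrays, beside 8.53% of all genes, and for 1 both were below, beside 12.1%. Wasf1, an actin regulator that also anchors PKA, read 182 and 232 in Calcr-cKO cells, against 143 and 133 in control cells (log2 difference 0.57, SE 0.35, limma adjusted p = 1). Akap9, an anchor of the centrosome and Golgi, read 693 and 741, against 612 and 539, and 5 of its 6 probe sets above the filter were higher in mean. Akap8, a nuclear anchor, read 542 and 613, against 444 and 508. Arfgef2, an exchange factor for Arf proteins with PKA-binding domains, read 264 and 252, against 225 and 195. These 4 separated the genotypes with both Calcr-cKO arrays above, by 0.28 to 0.57 on the log2 scale.

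Of 46 further genes of the cAMP pathway (G proteins, adenylyl cyclases, phosphodiesterases, CREB factors and coactivators, phosphatases, salt-inducible kinases and Lats kinases), 43 were on the array and 37 above the filter. Of these 37, 12 were higher and 25 lower in Calcr-cKO cells, with a median log2 difference of -0.09, and 57.3% of all genes were lower. None passed the limma test at an adjusted p under 0.05, and 0 had an unadjusted p under 0.05. Both Calcr-cKO arrays were above both control arrays for 2 of the 37 and below for 3, smaller shares than the 8.53% and 12.1% of all genes. Crtc1, a CREB coactivator that PKA signalling sends to the nucleus, read 107 and 110 in Calcr-cKO cells, against 135 and 186 in control cells (log2 difference -0.54, SE 0.37, limma adjusted p = 1). Pde4b, a cAMP-degrading phosphodiesterase, read 3656 and 3452, against 4091 and 4013, and all 3 of its probe sets above the filter were lower in mean. The phosphatase catalytic genes Ppp1cb and Ppp1cc went opposite ways. Ppp1cb read 3819 and 3714, against 4162 and 4045. Ppp1cc read 3166 and 3385, against 2873 and 3033, although 1 of its 2 probe sets had the other sign.

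**Figure D4:**
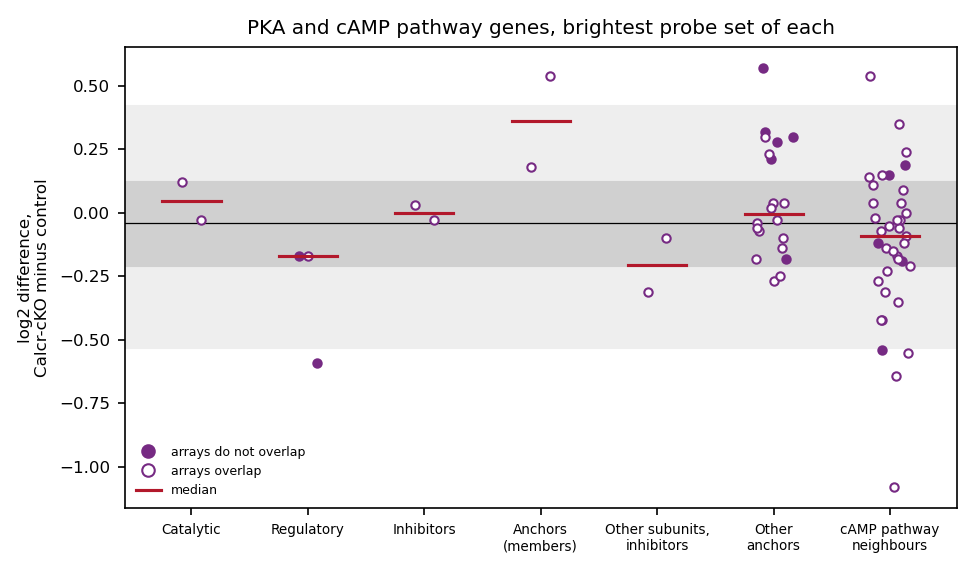
Log2 difference (Calcr-cKO minus control, vertical axis) of each gene above the filter by its brightest probe set, for the 9 PKA genes by role and for 3 lists of related genes; filled points mark genes whose arrays do not overlap and red lines medians. The dark band spans the 25th to 75th percentile of all 10140 genes (-0.21 to 0.12), the light band the 5th to 95th (-0.53 to 0.42), and the black line their median of -0.04; Prkar2b at -0.59 and Akap12 at 0.54 are the PKA genes outside the light band.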

How the data were processed

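Total RNA was column-purified from freshly sorted cells, biotin-labelled with a GeneChip small sample assay and hybridised to 1 array per sample, per the labels' protocols. The authors deposited intensity values, 1 per probe set on a linear scale, made with MAS5 per the submitters' processing notes, with the scaling target not given in the sources used here. Detection calls were not used here. Probe sets were named from the platform annotation, and all 22 symbols of the PKA probe sets matched their Entrez entries. Control (AFFX) probe sets were left out. Values were analysed as log2(value + 1), so fold changes are on that scale and understate changes of low signals. Probe sets at or above the median mean log2 value were kept (22519), and a gene was read by its brightest kept probe set. Calcr-cKO and control were compared with limma 3.58.1 in R 4.3.3 (lmFit, eBayes with intensity trend; 2 residual and 5.32 prior degrees of freedom), adjusted by Benjamini-Hochberg over all kept probe sets at 0.05, with no block. Steps were tested on simulated arrays with planted differences. These had equal noise for all probe sets, set below the median fitted spread of these data, and none shared by replicate number. That is a simpler and easier setting than these data. Nothing says whether replicates pooled mice, so p-values measure only the spread between these samples, whose number limits the precision. The genes and lists were chosen with earlier results of these data known. Named genes were the 9 members, Calcr, other subunits and inhibitors, and up to 4 genes of each related list with the smallest p among those without overlap. Alternatives were other normalizations, pseudocount, filters, variance model, replicate block, unsuffixed probe sets, means over probe sets, a 2-fold rule and leaving out each array; the regulatory subunit counts were added after seeing the data. Of the marker lists (satellite cell, endothelial, pericyte, leukocyte, fibro-adipogenic, muscle fibre), the last 2 summed to 23681 and 26234 and to 2188 and 3334 in Calcr-cKO cells, against 22306 and 28246 and 4184 and 1989 in control cells.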

Additional observations from a re-analysis of the deposited data

How the results depend on the processing

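No PKA probe set had an adjusted limma p under 0.05 under any normalization, filter, pseudocount, variance model, block or left-out array tried. The 2-fold rule without overlap named 1 PKA probe set and 123 of all. Over all probe sets, limma called 0 to 5 with an array left out. The titles share replicate numbers, and deviations of same-numbered arrays from their group means correlated at 0.434 over kept probe sets, but no label says what a number marks. With the replicate block 5 of all probe sets and 0 PKA probe sets were called, and 473 had an unadjusted p under 0.05, against 163 without it; of the 19 PKA probe sets 1 did, against 0 without the block, and 0 or 1 did with an array left out. The block changed no PKA call. With it, the smallest unadjusted limma p of a gene's brightest probe set was 0.0794, for Akap12. The 1 under 0.05 was thus not the brightest probe set of its gene. Calcr stayed between -1.24 and -0.97 with an array left out. The median over the 9 genes ran from -0.20 to 0.12 with an array left out. Prkar1a and Prkar2b stayed below 0 under every alternative that kept them. Directions near 0 turned: Prkacb was 0.03 after quantile normalization, 0.06 after median centring and 0.01 as a mean over probe sets. Pkig was 0.04 and 0.07 under the first 2 of these, and Pkia -0.01 as a mean. With an array left out, Prkaca ran from -0.09 to 0.33 (turning at -0.04 and -0.09), Prkacb from -0.18 to 0.12, Prkar2a from -0.58 to 0.24 (turning at 0.02 and 0.24), Pkia from -0.41 to 0.46 (turning at -0.41 and -0.13), Pkig from -0.20 to 0.14 (turning at 0.07 and 0.14), Akap1 from -0.06 to 0.42 and Akap12 from -0.36 to 1.44. Regulatory subunit probe sets lower in mean numbered 9 of 9 above the filter, and 7 to 9 with an array left out; 3 of 3 remained to count under the stricter filter. Those lower without overlap numbered 6 of 9, 5 after median centring, 6 to 9 with an array left out (where a lone array overlaps less easily), 2 of 3 under the stricter filter and 3 of 6 with only unsuffixed probe sets, as fewer probe sets were counted. Median centring also changed which probe sets these were. On 1452032_at of Prkar1a and 1438664_at of Prkar2b the genotypes then overlapped, and on 1432409_at of Prkar2a they no longer did. Quantile normalization and median centring moved the median of all genes to 0.02 and 0.05. Prkaca, Pkig and Akap12 had no value with only unsuffixed probe sets, nor Prkar2b and Akap1 under the stricter filter, and the cause of the turned directions was not tested. Prkar2b signals lay near the filter level of 63.9, and without detection calls no signal over background can be given.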
